A study of Mus musculus with 36 samples.

Results

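The 9 libraries described here came from mouse duodenal organoids given pulses of the Notch pathway inhibitor DAPT with a period of 130 min. They were chosen by their labels alone and are 9 of the 36 libraries in the series, with 3 libraries each after 24, 48 and 72 h of pulses. The organoids were grown from duodenal crypts of male or virgin female C57BL/6 mice older than 8 weeks, kept in ENR medium on a microfluidic chip with a flow of 200 µl per h, and pulsed with 2 µM DAPT. Organoids were passaged 3, 2 and 1 days before the start of the 24, 48 and 72 h experiments, so the duration of the pulses and the time since passage cannot be told apart. Each sample pooled 20 to 50 whole organoids that were not sorted for a cell type. The other 27 libraries, DMSO controls and pulses of 90 or 170 min at the same durations, enter only where named. The labels give a DAPT concentration below 2 µM for the 90 min pulses, and none is listed for those of 170 min. Pulse period and concentration therefore cannot be told apart between treatments. The question addressed was which transcripts differed with the length of treatment at this 1 pulse period.

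Notch signalling lets neighbouring cells of the intestinal crypt take different fates. Cells with active Notch express Hes1 and remain absorptive progenitors or stem cells, while cells that escape it express Atoh1 and the ligands Dll1 and Dll4 and become goblet, Paneth, enteroendocrine or tuft cells. DAPT blocks gamma-secretase, the protease that releases the active Notch fragment. Absorptive progenitors that leave the crypt become enterocytes, which carry digestive enzymes on a brush border and take up sugars, peptides and fat. Injured or reprogrammed intestinal epithelium can turn on a fetal-like programme that includes Clu, Ly6a and Anxa1 and depends on the coactivator YAP.

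The libraries held between 610977 and 1023096 counts, and neither the totals nor the mitochondrial share of 0.962% to 1.37% differed with duration by an exact permutation test over all arrangements of the libraries (p = 0.743 and p = 0.961). The epithelial markers Epcam and Cdh1 and the duodenal transcription factors Pdx1 and Gata4 were counted in all 9 libraries, Fabp6 of the ileum had 3 counts in all, and Col1a1 of fibroblasts and Cdh5 of endothelium had none. The libraries did not form 3 uniform groups. Transcripts of 4 Y-linked genes summed to between 316.8 and 535 counts per 1000000 counts of the library (CPM) in 4 libraries (24 h replicate 2, 48 h replicates 2 and 3, 72 h replicate 3) and to at most 11.7 CPM in the others. Xist, the RNA of the inactive X chromosome, reached 85.4 CPM in 24 h replicate 3 and no more than 1 count elsewhere. The remaining 4 libraries (24 h replicate 1, 48 h replicate 1, 72 h replicates 1 and 2) had neither, so 72 h holds 2 of them and each other duration 1. In addition, 72 h replicate 2 had the lowest levels of the enterocyte genes Fabp1, Apoa1 and Sis (31.3, 56.7 and 83.1 CPM) and of Olfm4, a crypt stem cell gene, at 134.9 CPM against 580 CPM or more in the other 8. The medians of gene groups that moved by over 1.5 times without 72 h replicate 2, or with the class of library, are given both ways.

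After 72 h of pulses, enterocyte genes of digestion, fat absorption and drug metabolism were mostly lower than after 24 h, while genes of the villus tip were split, with 10 above and 8 below 0 (median log2 change 0.13). Fetal-like, actin and p53 target genes were mostly higher. In the fit over the 9 libraries no single gene passed an adjusted p of 0.05 (edgeR's quasi-likelihood test, 10507 genes tested, 0% called in either direction), against 983 genes (9.36%) at an unadjusted p under 0.05. The lowest adjusted p was 0.0638, for Asah2, Slc46a3 and Flvcr1. DESeq2 on the same libraries called 70 genes, 12 higher and 58 lower, and limma-voom called 0. In a fit that estimates the spread from all 36 libraries, an alternative to the fit above, 24 of 11462 genes (0.209%) passed between 72 and 24 h, 7 higher (0.0611%) and 17 lower (0.148%). For each of these 24 genes the 3 libraries at 72 h lay wholly above or wholly below the 3 at 24 h, which was so for 12.7% of genes tested in the 9 libraries. The 24 were singled out after their values were seen. The labels do not say whether libraries of 1 duration came from separate cultures or animals, so these p-values measure only the spread between the samples.

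The 17 lower genes included enzymes and transporters of the absorptive epithelium. Flvcr1, a membrane transporter first described as a heme exporter, stood at 167, 156 and 148 CPM in the 3 libraries at 24 h, at 119, 119.8 and 133 CPM at 48 h, and at 81.8, 82.1 and 97.1 CPM at 72 h. The 3 durations did not overlap, and the log2 change from 24 to 72 h was -0.87 ± 0.15 (SE; 36-library fit, adjusted p = 0.0162). Asah2, a neutral ceramidase of the brush border, had 161, 123.5 and 175 CPM at 24 h, 123 to 134 CPM at 48 h, and 62.2, 72.3 and 70.8 CPM at 72 h. Its level at 48 h thus still overlapped that at 24 h, and its log2 change to 72 h was -1.16 ± 0.25 (adjusted p = 0.0485). Bco2, which cleaves carotenoids, went from 102, 104 and 94.5 CPM at 24 h to 27.8, 44.0 and 48.5 CPM at 72 h, with 65.9 to 82.2 CPM at 48 h between them and no overlap. Adh6a, an alcohol dehydrogenase, read 144, 116 and 233 CPM at 24 h and 8.18, 3.91 and 34.1 CPM at 72 h, a log2 change of -3.46 ± 0.73 (adjusted p = 0.0485). Slc5a11, a sodium-coupled inositol transporter, had 39 counts over the 3 libraries at 24 h, 25 at 48 h and 0 at 72 h, so with a floor of 3 counts over the 72 h group it was at least 11.9-fold lower than the 14.9 CPM at 24 h.

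The other 12 genes that fell have varied functions. Cyp2j9, a cytochrome P450, and Gstm7, a glutathione S-transferase, had log2 changes of -1.60 ± 0.33 and -1.35 ± 0.27. Fahd1, Scp2, Acot13 and Slc37a4, which act in mitochondria, peroxisomes, acyl-CoA hydrolysis and glucose-6-phosphate transport, had changes of -1.38, -0.80, -0.70 and -0.98. Sec24d, a cargo adaptor of the COPII coat, and Bet1, a SNARE of traffic from endoplasmic reticulum to Golgi, changed by -0.91 and -0.77. Pigp, of glycolipid anchor synthesis, the sorting nexin Snx25, the tubulin Tubal3 and Aamdc completed the set at -0.63, -1.10, -1.60 and -0.86. Adjusted p-values of these 12 lay between 0.0354 and 0.0485.

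Of the 7 higher genes, 2 act on actin. Flna, the actin crosslinker filamin A, had 93.5, 83.0 and 71.6 CPM at 24 h, 128, 139 and 135 CPM at 48 h, and 118, 139 and 136 CPM at 72 h. All 6 later libraries lay above the 3 at 24 h, and 48 and 72 h overlapped. Its log2 change to 72 h was 0.65 ± 0.12 (36-library fit, adjusted p = 0.0253). Inf2, a formin that nucleates and severs actin filaments, went from 20.0, 10.9 and 12.2 CPM to 32.7, 60.6 and 31.5 CPM, a log2 change of 1.53 ± 0.35. Gdf15, a secreted stress cytokine and p53 target, rose over the course, with 6.30, 20.8 and 16.8 CPM at 24 h, 32.3, 35.4 and 17.7 CPM at 48 h, and 54.0, 61.6 and 45.9 CPM at 72 h (log2 change 1.87 ± 0.35, adjusted p = 0.0254). Ralgapb, a subunit of the GTPase-activating complex for Ral, rose by 0.50 ± 0.11, with 86.9 to 92.9 CPM at 24 h and 121 to 129.9 CPM at 72 h. The other 3 were Suox, sulfite oxidase, at 0.97 ± 0.22, and Fndc10 and Fam129b at 1.13 ± 0.25 and 0.60 ± 0.13. The number of genes past the threshold depended on single libraries: it was 0 without 72 h replicate 2, 3 without 24 h replicate 3 (1 of the 24), 94 without 24 h replicate 2 (18 of the 24) and 127 without 72 h replicate 3 (22 of the 24). Without 48 h replicate 2 or 3 it was 13 and 12, all of them among the 24. Each of the 24 kept its sign in every such fit.

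**Figure D1:**
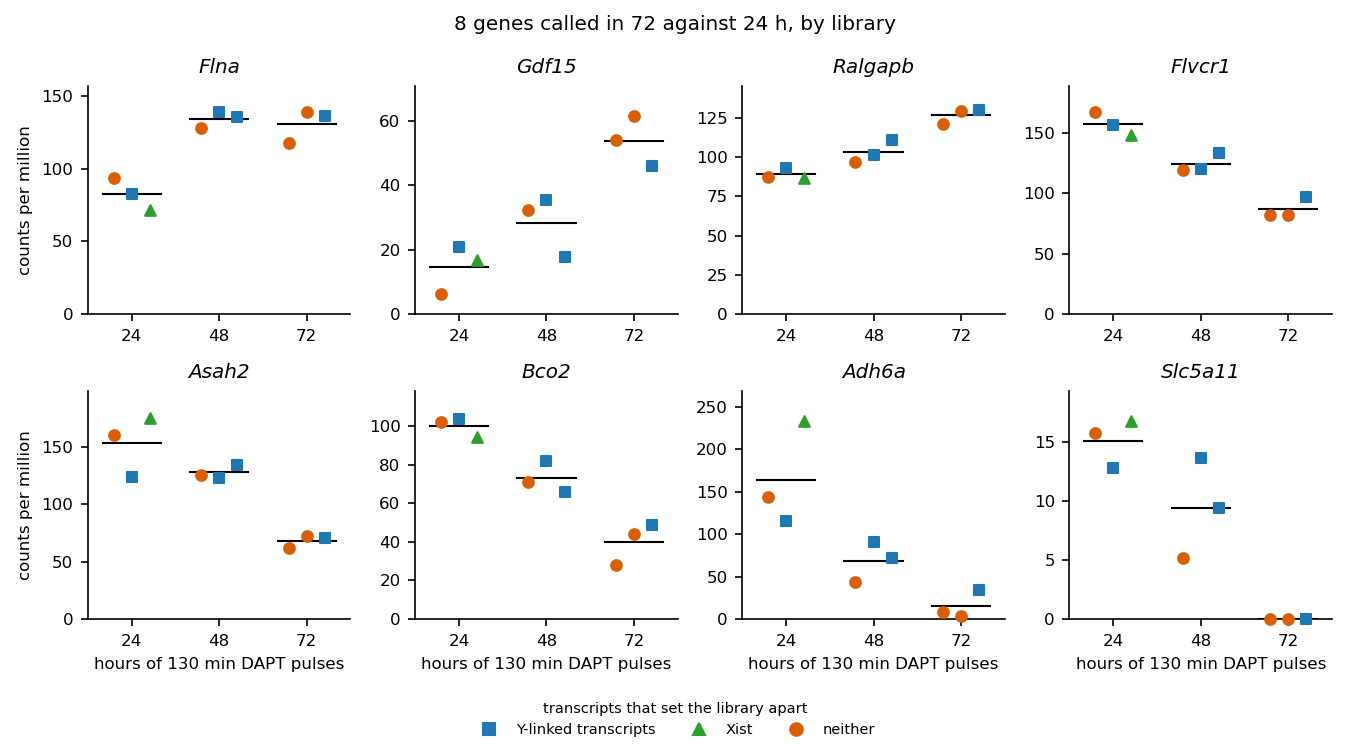
CPM (vertical axis, from 0) of 8 of the 24 genes in each of the 9 libraries after 24, 48 and 72 h of pulses (horizontal axis); bars are group means and symbols mark libraries with Y-linked transcripts, with Xist or with neither. Flna reached its higher level by 48 h, Asah2 was lower at 72 h alone, and Slc5a11 had no count in the 3 libraries at 72 h.

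The split of the libraries by sex-linked transcripts moved with some of these results. With the 3 classes of library as a block in the 9-library fit, an alternative chosen after seeing the data, 7 genes passed, all lower at 72 h: Flvcr1 at -0.88 ± 0.14 (adjusted p = 0.0323), Asah2 at -1.05 ± 0.16 (0.0271), Bco2 at -1.31 ± 0.21 (0.0320), the lysosomal transporter Slc46a3 at -2.45 ± 0.39 (0.0320), the alcohol dehydrogenase Adh4, the complement factor H-related gene Cfhr2 and the transporter Slc16a12. In the block fit the Xist class is 24 h replicate 3 alone. That library is then fitted exactly, so its level does not enter the log2 changes of the block fit. With Y-linked and Xist levels as covariates in the 36-library fit, also added later, 7 genes passed: Flvcr1, Gdf15, Flna and Aamdc of the 24, and Mtr, Reg3g and Gtse1. Leaving the 4 libraries with neither transcript out, which leaves 1 library at 72 h that is then assumed to vary like the other groups, 1 gene passed and none of the 24. Adjusted p-values over all 18 alternatives ran from 1.2e-05 to 0.925 for Flvcr1, from 0.012 to 0.367 for Flna and from 3.24e-05 to 0.982 for Gdf15, and the highest value of each came from that last fit. Flvcr1 was past the threshold in 16 of the 18, Flna in 15 and Gdf15 in 14. Between the pair of Y-linked libraries at 24 and 72 h the 3 genes differed by -0.68, 0.71 and 1.11 on the log2(CPM + 1) scale, and among the libraries with neither transcript by -1.02, 0.45 and 3.01.

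Genes of enterocyte digestion and absorption were lower as groups, with none passing in the 9-library fit. Of 27 brush border and digestive genes tested, 22 had a log2 change below 0 from 24 to 72 h (median -0.91), against 49.1% of all genes (median 0.01), and 11 had all 3 libraries at 72 h below all 3 at 24 h, against 6.73% of all genes. Mme, the peptidase neprilysin, had 199, 176 and 215 CPM at 24 h, 92.7 to 153 CPM at 48 h, and 45.8, 6.84 and 66.9 CPM at 72 h. Its levels at 72 h did not overlap those at either earlier time, and the log2 change was -2.40 ± 0.56. The peptidase Dpp4 had 148 to 175 CPM at 24 h and 62.6 to 110 CPM at 72 h (-0.83 ± 0.20). Sis, the disaccharidase sucrase-isomaltase, had 621, 707 and 829 CPM at 24 h and 489, 83.1 and 375 CPM at 72 h, so the groups did not overlap but 72 h replicate 2 was far below the other libraries. Ezr, the linker between membrane and actin, was the exception among the non-overlapping members, with 306 to 369 CPM at 24 h and 417 to 466 CPM at 72 h. In bulk RNA of whole organoids, fewer enterocytes and less RNA per enterocyte cannot be told apart.

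Genes of fat absorption were similar. Of 25 tested, 21 were below 0 (median -0.87), against 49.1% of all genes, and 11 were wholly lower at 72 h, against 6.73%. Fabp2, an intracellular fatty acid carrier, had 976, 850 and 962 CPM at 24 h, 501 to 683 CPM at 48 h and 429, 244 and 539 CPM at 72 h, lower than at 24 h in all 6 later libraries (-1.22 ± 0.26, unadjusted p = 6.28e-04). The apolipoprotein Apoa1 had 727, 636 and 1032 CPM at 24 h and 293, 56.7 and 365 CPM at 72 h, and the carrier Fabp1 had 396, 503 and 722 CPM against 200, 31.3 and 233 CPM. Apoa4 was listed with 0 counts in 72 h replicate 2, with 18.0 and 26.2 CPM in the other 72 h libraries and 58.8, 90.9 and 186 CPM at 24 h. The lipid droplet protein Plin2 went the other way, at 99.1 to 120 CPM at 24 h and 129 to 166 CPM at 72 h.

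Without 72 h replicate 2, the enterocyte groups had medians nearer 0: 18 of 27 brush border genes (median -0.59) and 19 of 25 fat absorption genes (-0.48), with 11 of each wholly lower, against 10.7% of all genes in that comparison of 2 with 3 libraries. The size of the difference also varied with the class of library. Between the Y-linked libraries, 14 of 27 brush border genes and 15 of 25 fat absorption genes were lower at 72 h (medians -0.11 and -0.39). Among the libraries with neither transcript, 23 of 27 and 19 of 25 were lower (medians -1.19 and -0.99). Mme and Fabp2 were lower in both, with differences of -1.38 and -0.66 (log2(CPM + 1)) between the Y-linked libraries.

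**Figure D2:**
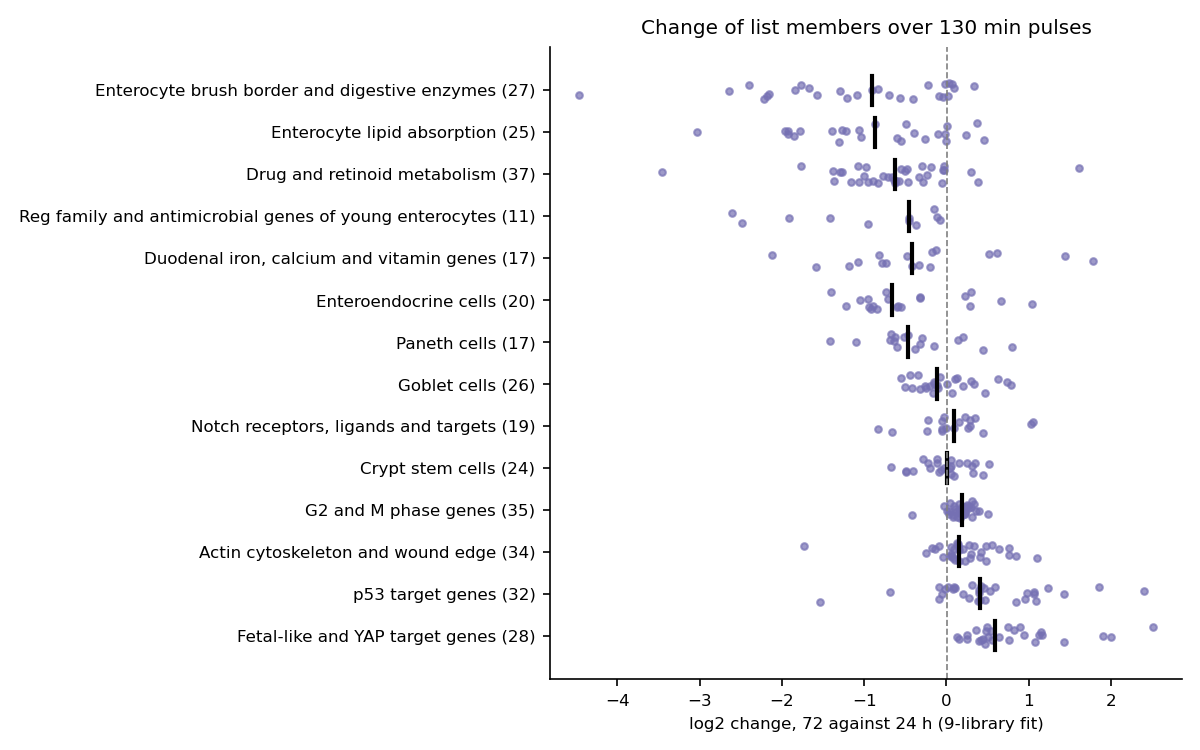
Fitted log2 change from 24 to 72 h (horizontal axis, 9-library fit) of each tested member of 14 gene lists, with the number tested in parentheses, black bars at list medians and a dashed line at the median of all genes. Enterocyte, drug metabolism and Reg family members lay mostly below 0, and the 28 fetal-like and YAP target genes lay above 0, while no member passed in that fit.

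Genes of drug and retinoid metabolism were below 0 in 34 of 37 cases (median -0.62), against 49.1% of all genes, and 15 were wholly lower at 72 h, against 6.73%. Sult1b1, a sulfotransferase, had 269, 282 and 297 CPM at 24 h, 178 to 198 CPM at 48 h and 152, 58.6 and 126 CPM at 72 h. Its 3 durations did not overlap, and the log2 change was -1.38 ± 0.28 (unadjusted p = 5.74e-04). The glucuronosyltransferase Ugt2b36 behaved alike, at 184 to 198 CPM, 151 to 163 CPM and 51.8 to 114 CPM in turn. Adh6a is the member of this list among the 24 genes above. Without 72 h replicate 2, 28 of 37 were below 0 (median -0.39), and between the Y-linked libraries 25 of 37 (median -0.25).

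Of 11 tested genes of the Reg family and other antimicrobial genes of young enterocytes, 11 were below 0 (median -0.46), against 49.1% of all genes, and 5 were wholly lower, against 6.73%. Between the Y-linked libraries 7 of 11 were lower at 72 h (median -0.27), and among those with neither transcript 10 of 11 (median -0.84). Reg1, a secreted lectin-like protein, had 972, 758 and 986 CPM at 24 h, 488 to 746 CPM at 48 h, and 278, 115 and 340 CPM at 72 h (-1.91 ± 0.37, unadjusted p = 5.75e-04). The antibacterial lectin Reg3b had 148 to 167 CPM at 24 h and 22.9, 8.80 and 56.4 CPM at 72 h, again without overlap. Reg3g had 151, 102 and 178 CPM at 24 h and 90.0, 51.8 and 24.9 CPM at 72 h, and it passed in the fit with Y-linked and Xist covariates (-1.71 ± 0.32, adjusted p = 0.0435). Metallothionein Mt1, a zinc-binding protein, also lay wholly lower, at 1293 to 1510 CPM against 769, 585 and 1119 CPM.

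The fetal-like and YAP target list lay in the other direction. All 28 of its tested members had a log2 change above 0 (median 0.59), against 50.9% of all genes, and 10 were wholly higher at 72 h, against 6.01% of all genes. None passed in either fit. Msln, the surface protein mesothelin, had 154, 268 and 83.8 CPM at 24 h, 122 to 260 CPM at 48 h and 360, 561 and 474 CPM at 72 h, above all 6 earlier libraries (1.42 ± 0.40). Ajuba, a LIM protein that acts on the Hippo pathway upstream of YAP, had 50.4, 80.0 and 42.7 CPM at 24 h and 123, 161 and 112 CPM at 72 h, with 51.4 to 99 CPM at 48 h. Clu, the secreted chaperone clusterin that marks regenerating cells, had 193, 206 and 157 CPM at 24 h and 304, 631 and 295 CPM at 72 h. Anxa3, a membrane-binding annexin, had 160 to 236 CPM at 24 h and 267, 347 and 279 CPM at 72 h. In all 4 genes, 72 h replicate 2 had the highest level.

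In the list medians, nearly all of the difference lay between 48 and 72 h. From 24 to 48 h, 16 of 28 members were above 0 (median 0.04), against 50% of all genes. From 48 to 72 h 27 of 28 were (median 0.69), against 49.5% of all genes. Without 72 h replicate 2, 25 of 28 were above 0 in that step (median 0.47). The summed level of the list was 4735, 5664 and 4060 CPM at 24 h and 5855, 4008 and 4730 CPM at 48 h. At 72 h it was 6318, 9305 and 6881 CPM, so that the 3 libraries at 72 h lay above the other 6. Among the libraries with neither transcript it was 4735 CPM at 24 h, 5855 CPM at 48 h, and 6318 and 9305 CPM at 72 h. In the Y-linked libraries it was 5664 CPM at 24 h, 4008 and 4730 CPM at 48 h, and 6881 CPM at 72 h. The timing within each class was not tested. From 24 to 72 h without 72 h replicate 2, 27 of 28 were above 0 (median 0.53). Of these genes 11 were wholly higher, against 8.43% of all genes in that comparison. Between the Y-linked libraries 23 of 28 were higher at 72 h (median 0.28), and among the libraries with neither transcript 28 of 28 (median 0.96).

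YAP has no DNA-binding domain of its own and reaches its targets through TEAD factors, whose core site reads GGAATG. RefSeq promoter sequence of build GRCm38.p6 was at hand for 19 of the 28 genes, and 6 of these held GGAATG or its complement CATTCC in the 250 bases before the start, against 12.7% of tested genes with such sequence. A match is a description of letters and not a binding site. The list was chosen to hold YAP targets, so its share of matches says nothing about these libraries. The 2 members with a pair of matches are printed, chosen for their matches alone, with matches in capitals. Ankrd1, a nuclear ankyrin repeat protein, is on the minus strand with its window at chr19:36119845-36120094, and Ajuba is on the minus strand with its window at chr14:54577662-54577911.
Ankrd1: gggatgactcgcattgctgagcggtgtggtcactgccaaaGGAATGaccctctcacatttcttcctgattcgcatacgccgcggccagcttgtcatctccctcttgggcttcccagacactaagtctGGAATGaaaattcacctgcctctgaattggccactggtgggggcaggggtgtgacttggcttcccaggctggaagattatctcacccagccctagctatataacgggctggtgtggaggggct
Ajuba: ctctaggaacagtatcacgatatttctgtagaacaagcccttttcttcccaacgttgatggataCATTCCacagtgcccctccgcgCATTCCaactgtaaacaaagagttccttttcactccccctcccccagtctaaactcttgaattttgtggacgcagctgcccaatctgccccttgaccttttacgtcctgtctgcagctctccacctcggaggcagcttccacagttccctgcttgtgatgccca
Ankrd1 was low and variable, at 4.20, 13.8 and 0 CPM at 24 h and 13.1, 79.2 and 21.0 CPM at 72 h, with groups that overlapped (2.51 ± 0.94).

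Genes induced by p53 were higher in most cases, with 26 of 32 tested above 0 (median 0.40), against 50.9% of all genes. Of the 32, 6 were wholly higher and 1 wholly lower at 72 h, against 6.01% and 6.73% of all genes. Without 72 h replicate 2 the median was 0.21, with 26 of 32 above 0. Phlda3, which restrains AKT, had 5.25, 7.90 and 6.10 CPM at 24 h, 9.42 to 20.8 CPM at 48 h, and 14.7, 52.8 and 36.7 CPM at 72 h (2.40 ± 0.49, unadjusted p = 3.58e-04). Bax, an effector of mitochondrial cell death, had 30.5 to 32.0 CPM at 24 h, 39.9 to 51.8 CPM at 48 h and 52.4, 90.9 and 55.1 CPM at 72 h, with no overlap between 24 h and either later time. Sesn1, a sestrin that is also a p53 target, went the other way, at 28.4, 41.5 and 45.7 CPM against 13.1, 8.80 and 18.4 CPM. Cdkn1a and Mdm2, the targets most used as readouts of p53, overlapped between 24 and 72 h, with log2 changes of 0.40 ± 0.25 and 0.31 ± 0.19. Between the Y-linked libraries 23 of 32 members were higher at 72 h (median 0.16) and among those with neither transcript 28 of 32 (median 0.45).

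Actin cytoskeleton and wound edge genes were above 0 in 28 of 34 cases with a small median of 0.15, against 50.9% of all genes, and 10 were wholly higher, against 6.01%. The median was 0.18 without 72 h replicate 2, 0.29 with the class of library as a block, and 0.13 to 0.31 with libraries left out. Apart from Flna these included the nuclear lamin Lmna, at 144 to 163 CPM at 24 h and 188 to 225 CPM at 72 h. From 24 to 48 h only 10 of the 34 were above 0, and from 48 to 72 h 30 were. G2 and M phase genes were above 0 in 33 of 35 cases (median 0.19), against 50.9% of all genes, with 6 wholly higher, against 6.01%. Without 72 h replicate 2, 29 of 35 were above 0 (median 0.12), and with libraries left out the median ran from 0.09 to 0.25. Of the 35, 24 were higher at 72 h between the Y-linked libraries (median 0.08) and 24 among those with neither transcript (median 0.12). The proliferation marker Mki67 overlapped between groups, at 152 to 214 CPM at 24 h and 199 to 249 CPM at 72 h.

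**Figure D3:**
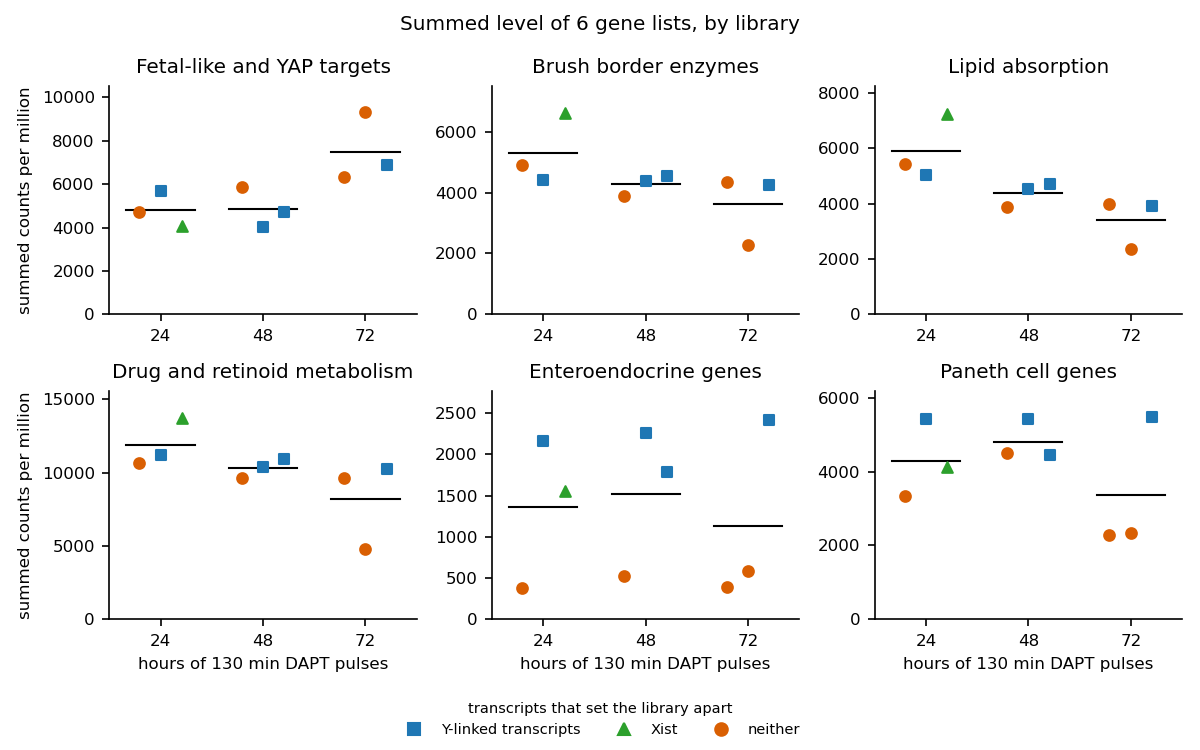
Summed CPM (vertical axes, from 0) of 6 gene lists in each of the 9 libraries by hours of pulses (horizontal axis), with bars at group means and symbols by sex-linked transcripts. Fetal-like genes were highest in the 3 libraries at 72 h, 72 h replicate 2 was lowest for brush border, fat absorption and drug metabolism genes, and enteroendocrine genes were low in the 4 libraries with neither transcript at every duration.

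Genes of the Notch pathway shared no direction: of 19 tested, 10 were above and 9 below 0 (median 0.09, or 0.04 without 72 h replicate 2). Between the Y-linked libraries 7 of 19 were higher at 72 h (median -0.13), and among those with neither transcript 11 of 19 (median 0.27). Hes1, the Notch target of absorptive progenitors, stood between 298 and 374 CPM in all 9 libraries, with a log2 change from 24 to 72 h of -0.06 ± 0.12. The ligand Dll1 had 54.9 to 65.1 CPM at 24 h and 52.4, 28.4 and 39.4 CPM at 72 h, wholly lower though not passing (-0.67 ± 0.25), and Dll4 overlapped. Numb, an inhibitor of Notch, was wholly lower at 24.9 to 37.6 CPM against 44.5 to 71.6 CPM at 24 h. Of the 19, 3 were wholly lower and 0 wholly higher at 72 h, against 6.73% and 6.01% of all genes. Atoh1, the regulator of the secretory lineage, had 106, 133 and 77.7 CPM at 24 h, 98.9 to 152 CPM at 48 h and 54.0, 75.3 and 97.1 CPM at 72 h, and the groups overlapped (-0.51 ± 0.24). Sox9, a crypt transcription factor outside the Notch list, was wholly higher, at 248 to 271 CPM and 318 to 352 CPM (0.34 ± 0.12, unadjusted p = 0.0149).

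In the 9-library fit, goblet genes, secretory regulators and crypt stem cell genes were mostly higher at 48 h than at either other time. Tuft cell genes were not, and no member passed. Of 26 goblet genes 23 were above 0 from 24 to 48 h (median 0.27) and 22 below 0 from 48 to 72 h (median -0.32), against 50.5% of all genes, while from 24 to 72 h 11 were above and 15 below. Secretory regulators behaved likewise, with 18 of 21 above 0 and then 18 of 21 below, and so did crypt stem cell genes, with 19 of 24 in each step. Without 72 h replicate 2 the members below 0 from 48 to 72 h were 19 of 26 goblet genes (median -0.20), 17 of 21 regulators and 16 of 24 stem cell genes (median -0.17, from -0.31). Of 8 tuft cell genes tested, 1 was above 0 from 24 to 48 h (median -0.15) and 5 from 48 to 72 h (median 0.17, or 0.38 without 72 h replicate 2). From 24 to 72 h 3 of the 8 were above 0 (median -0.12), and the median changed sign without 72 h replicate 2 (0.14, 6 of 8) and with the class block (0.10). Paneth and enteroendocrine genes were above 0 from 24 to 48 h in 12 of 17 and 14 of 20 cases. From 48 to 72 h they were below 0 in 15 of 17 and 18 of 20 (medians -0.51 and -0.70). Without 72 h replicate 2 those below 0 from 48 to 72 h were 14 of 17 and 12 of 20 (medians -0.35 and -0.08). Goblet genes from 24 to 72 h varied with the class of library. Between the Y-linked libraries 19 of 26 were higher at 72 h (median 0.16), and among those with neither transcript 6 of 26 (median -0.25). The mucin Muc2 had 246 to 394 CPM at 24 h, 385 to 495 CPM at 48 h and 294 to 531 CPM at 72 h, with overlap between all 3. The stem cell receptor Lgr5 had 131 to 205 CPM, 180.2 to 185 CPM and 118, 74.3 and 186 CPM in turn, and its log2 change from 24 to 72 h was -0.41 ± 0.29 with all libraries and -0.09 without 72 h replicate 2. These steps share the 48 h libraries, so their opposite signs are not independent. The step from 48 to 72 h also varied with the class of library. In Y-linked libraries summed goblet levels were 5330 and 5861 CPM, then 6089 CPM, and stem cell levels 4914 and 4680 CPM, then 4739 CPM. With neither transcript, goblet levels were 6171 CPM, then 3990 and 4479 CPM, and stem cell levels 4489 CPM, then 3846 and 3277 CPM. Secretory regulators had 2180 and 2355 CPM, then 2087 CPM, in the Y-linked libraries, and 2161 CPM, then 1701 and 1762 CPM, with neither. This was not tested.

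Enteroendocrine genes differed with the class of library at every duration. Chgb, a granule protein, had 21.0, 1.04, 9.82 and 14.7 CPM in the 4 libraries with neither transcript and 285 to 434 CPM in the other 5. The summed level of the list was 381 to 579.6 CPM in those 4 and 1553 to 2419 CPM in the 5, without overlap. Lyz1, the Paneth cell lysozyme, had 206 to 423 CPM in the 4 and 658 to 1274 CPM in the 5. The medians of these lists from 24 to 72 h (enteroendocrine -0.66, Paneth -0.46) became -0.01 and -0.17 without 72 h replicate 2. With the class of library as a block they were -0.09 and -0.37. Between the Y-linked libraries 9 of 17 Paneth genes were higher at 72 h (median 0.08). Among those with neither transcript 1 of 17 was (median -0.68). For enteroendocrine genes the counts were 10 of 20 (median -0.01) and 9 of 20 (median 0). How much of either list's change came from the class was not tested. Of 20 enteroendocrine genes, 0 were wholly lower or higher at 72 h, against 6.73% and 6.01% of all genes.

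Between 24 and 48 h no gene passed in the 9-library fit (0%), with 393 genes (3.74%) at an unadjusted p under 0.05 and 0 called by DESeq2 and limma-voom. In the 36-library fit 1 gene passed (0.00872%), Flna, with a log2 change of 0.65 ± 0.12 (adjusted p = 0.0380). The smallest p-values in the 9-library fit after Flna belonged to Plekhg2 and the zinc finger gene Zkscan7.1. Plekhg2 had 5.25, 2.96 and 6.10 CPM at 24 h and 17.7, 17.1 and 21.2 CPM at 48 h. Akr1c19, an aldo-keto reductase, was lower with little spread, at 504, 502 and 463 CPM against 374, 349 and 371 CPM (-0.46 ± 0.12), and had 370, 323 and 336 CPM at 72 h. Gk, glycerol kinase, and Kdm6a, a histone demethylase, had changes of -1.01 ± 0.27 and -0.72 ± 0.20. The adjusted p of each was 0.999. Nuclear subunits of the respiratory chain were below 0 at this step in 71 of 76 cases, with a small median of -0.16, against 50% of all genes. Of the 76, 12 were wholly lower, against 4.2% of all genes. Their summed level was 18610, 18290 and 21040 CPM at 24 h, the last in the Xist library. At 48 h it was 16980, 18270 and 17830 CPM. From 24 to 72 h their median was -0.17, or -0.04 with the class of library as a block.

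Between 48 and 72 h no gene passed in either fit (0%), with 658 (6.26%) at an unadjusted p under 0.05 in the 9-library fit, 1065 (9.29%) in the 36-library fit and 0 called by DESeq2 and limma-voom. Mboat1, a lysophospholipid acyltransferase, was held within narrow bounds at both times, at 114, 121 and 114 CPM at 48 h and 183, 200.4 and 185 CPM at 72 h (0.72 ± 0.12, adjusted p = 0.447). The linker histone H1f2 had 61.6 to 84.4 CPM and then 132 to 168 CPM (0.96 ± 0.17), and Emp1, a membrane protein of the fetal-like list, 196 to 287 CPM and then 352 to 540 CPM (0.85 ± 0.18, adjusted p = 0.581). Sox6, a transcription factor, had 59.4, 59.3 and 55.3 CPM at 48 h and 18.0, 13.7 and 31.5 CPM at 72 h (-1.46 ± 0.30). Asah2 and Slc5a11 were the other 2 lower genes with the smallest p-values. A test for any difference among the 3 times called 0 genes (0%), with 720 (6.85%) at an unadjusted p under 0.05, 53 by DESeq2 and 0 by limma-voom. In the 36-library fit it called Flna and Flvcr1 (0.0174%, adjusted p = 0.0265 and 0.0427).

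The change from 24 to 72 h was then set against the same change in the other treatments. The 90 min pulses differed from those of 130 min in DAPT concentration as well as in period. No gene passed for the difference from the mean of DMSO, 90 and 170 min (0%), with 896 of 11462 genes (7.82%) at an unadjusted p under 0.05 and 0 by DESeq2. No gene passed for the difference from DMSO alone (0%), with 1041 (9.08%) unadjusted and 0 by DESeq2. Flna came closest to the threshold in the first, where the change at 130 min exceeded the mean of the others by 0.73 ± 0.14 on the log2 scale (adjusted p = 0.0640). Its own changes were 0.65 at 130 min, -0.08 in DMSO, -0.18 at 90 min and 0.02 at 170 min. Flvcr1 was next, at -0.87 against -0.05, 0.00 and -0.31 (difference -0.75 ± 0.17, adjusted p = 0.486), followed by Cyp2j9, Gstm7, Agmat and Ralgapb with the same adjusted p. Against DMSO alone the smallest p-values belonged to Flna, Narf, Asah2, Gal3st2, Agmat and Gcc2 (adjusted p = 0.441 for each). Within DMSO, 90 min or 170 min no gene passed between 24 and 72 h in this fit, with 666 (5.81%), 150 (1.31%) and 861 (7.51%) genes at an unadjusted p under 0.05. For fetal-like and YAP target genes the median change in that fit was 0.56 at 130 min over 31 genes, beside -0.36 in DMSO, 0.01 at 90 min and 0.40 at 170 min, and for drug and retinoid genes -0.62 beside -0.01, 0.06 and -0.30. Whether these list medians differ between treatments was not tested. Sex-linked transcripts varied between libraries in the other treatments too. Y-linked genes summed to 300, 24.9 and 243 CPM in DMSO at 24 h, and 128, 106.5 and 7.31 CPM at 72 h. The sums at 170 min were 19.0, 343 and 4.15 CPM, then 12.3, 5.83 and 98.0 CPM. Those at 90 min were 160, 37.7 and 344 CPM, then 94.3, 136 and 84.4 CPM. The list medians were not adjusted for this, and its part in them was not tested.

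**Figure D4:**
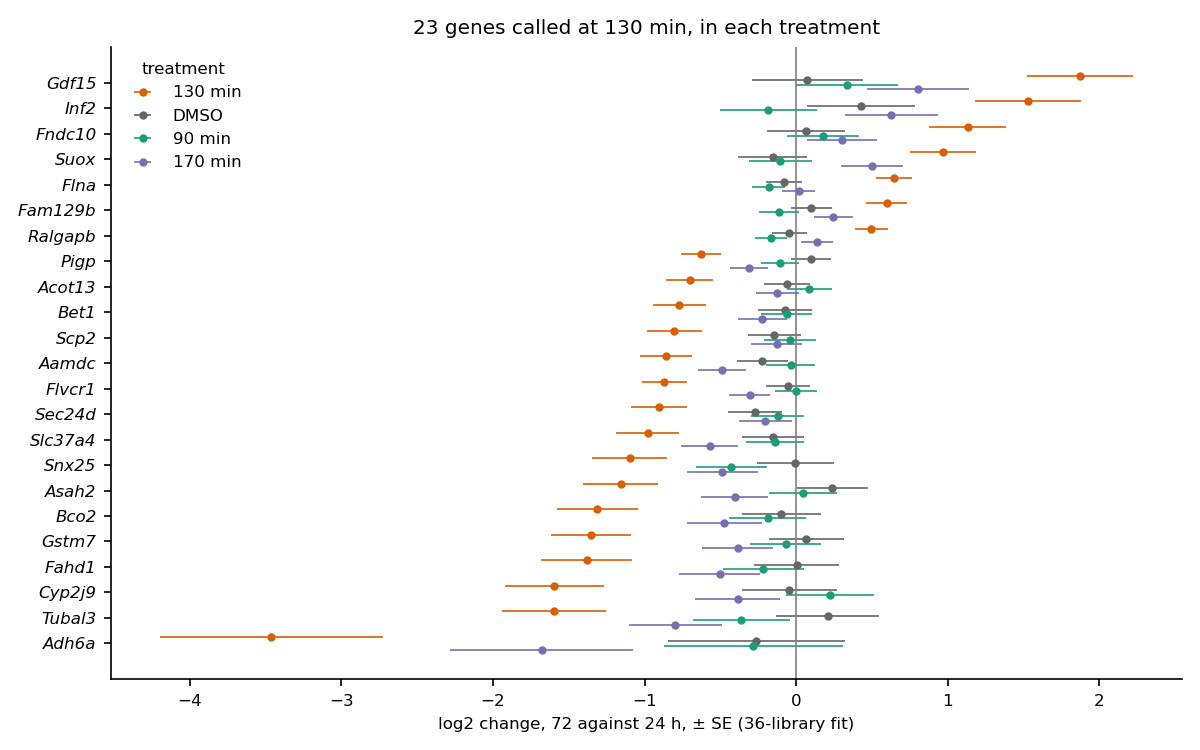
Log2 change from 24 to 72 h with its standard error (horizontal axis, 36-library fit) in each of the 4 treatments for 23 of the 24 genes called at 130 min, leaving out Slc5a11, which had no count at 72 h. The 130 min values were what called these genes, and no difference between treatments passed the test; Flna stood at 0.65 at 130 min and between -0.18 and 0.02 in the others.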

How the data were processed

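RNA of 9 libraries (3 each after 24, 48 and 72 h of 130 min DAPT pulses) was analysed from the authors' deposited table of counts per gene and sample. Per the labels' protocols the libraries were made from polyadenylated RNA by Sort-seq, and the submitters' processing notes name STAR 2.7.8a and UMI-tools 1.1.1. No source used here gives the genome build, the annotation or how reads were counted. The deposited counts are whole numbers, and no gene exceeded a count of 2775 in any of the 9 libraries, with mt-Rnr2 the top gene at 130 min.

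Of 34197 genes, 10507 passed edgeR's filterByExpr. edgeR 4.0.16 (quasi-likelihood, robust, TMM) was run in R 4.3.3 with 1 coefficient per duration (6 residual degrees of freedom), with Benjamini-Hochberg adjustment over all tested genes and a two-sided threshold of 0.05. SE is the absolute log2 change divided by the square root of F. A fit over all 36 libraries (12 groups, 24 residual degrees of freedom, 11462 genes) tested differences between treatments. CPM is a count scaled to a library total of 1000000, and list levels are sums of CPM. DESeq2 1.42.0 and limma 3.58.1 were alternatives, together with other scalings, filters, covariates, a replicate block and leaving out each library. The fit was tested on simulated data. The members and the 45 gene lists were chosen with earlier results of these data known, and no p-value is given for a list. Named genes are those with the smallest p-values in each direction, list members with the smallest p-values, a panel of 30 genes, and genes singled out after their values were seen; a few of these are not reported here. Fitted changes of genes with no count in a group are not given; a floor of 3 counts over the group is used.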

Additional observations from a re-analysis of the deposited data

How the results depend on the processing

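Of the comparisons within 130 min, 72 against 24 h gave 0 genes with TMM, DESeq2-type size factors, the library total alone, limma-voom and a mean CPM minimum of 10, and 70 with DESeq2, 356 with no filter on low counts, 24 in the 36-library fit, 234 with the log2 library total as a covariate, and 7 with the class of library as a block. Deviations of same-numbered libraries correlated over 0.1 in 3 of 3 pairs between 24 and 48 h (0.237 to 0.578), where the replicate block gave 0 genes as well, but in 2 of 3 pairs between 24 and 72 h (lowest -0.0873) and between 48 and 72 h (lowest -0.375), so the numbers were not taken as pairs over the 9 libraries. With the replicate block 38 genes passed between 72 and 24 h, all lower. Leaving out libraries gave 0 to 23, with 14 without 24 h replicate 2 and 23 without 72 h replicate 3. For 48 against 24 h the count was 1 with no filter and 1 in the 36-library fit. For 72 against 48 h it was 165 with no filter and 0 to 2 when libraries were left out. For any difference it was 53 with DESeq2, 379 with no filter, 2 in the 36-library fit, 118 with the library total, 5 with the replicate block and 0 to 5 when libraries were left out. The differences from other treatments gave 29 (mean of 3) and 17 (DMSO) with no filter, and 0 to 3 against DMSO when libraries were left out. The replicate block changed no other of these comparisons. The 24 genes of the 36-library fit, a count of its own added after seeing the data, became 19 with DESeq2-type size factors, 22 with the library total alone, 148 with DESeq2, 266 with no filter, 21 with the CPM minimum, 87 with the library total as a covariate, 16 with a replicate block within treatment, 7 with sex-linked covariates, 1 with the 4 libraries left out and 0 to 127 with single libraries left out. The causes were not tested. Among genes of the panel reported here, none of which passed in the 9-library fit, the log2 change from 24 to 72 h turned sign for Dll4 (0.0167 with the library total alone, 0.081 with limma-voom, 0.0082 in the 36-library fit, 0.20 with the class block, -0.21 to 0.18 with libraries left out), Chga (0.10 with limma-voom, 0.81 with the class block, -4.22 to 0.54) and Dclk1 (0.0913 with the class block, -2.88 to 0.48), and with libraries left out for Hes1 (-0.11 to 0.0401), Lgr5 (-0.93 to 0.10), Olfm4 (-1.05 to 0.17), Tff3 (-0.02 to 0.32) and Lyz1 (-1.73 to 0.48). Another scaling moved the median change of all genes by less than 0.1.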

Other observations

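Class I antigen presentation genes were lower at 72 than at 24 h in 6 of 7 cases tested (median log2 change -0.52), against 49.1% of all genes, with 3 wholly lower, against 6.73%, and none passing. Between the Y-linked libraries 4 of 7 were lower (median -0.19), and with the class of library as a block 4 of 7 (median -0.35). The non-classical gene H2-Q1 had 93.5, 95.8 and 148 CPM at 24 h and 31.1, 3.91 and 40.7 CPM at 72 h. B2m, the shared light chain, had 502, 556 and 651 CPM against 398, 323 and 488 CPM, while the classical gene H2-K1 overlapped between the groups. Cholesterol synthesis genes were below 0 in 24 of 26 cases with a small median of -0.17, against 49.1% of all genes. Of the 26, 5 were wholly lower, against 6.73%. With the class block 18 of 26 were below 0 (median -0.05), and with libraries left out the median ran from -0.32 to -0.02. Genes of duodenal iron, calcium and vitamin handling were below 0 in 13 of 17 cases (median -0.42). Their median was -0.22 without 72 h replicate 2, -0.13 between the Y-linked libraries and -0.25 with the class block.

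Of the 18 villus tip genes tested, 2 were wholly higher and 5 wholly lower at 72 h, against 6.01% and 6.73% of all genes. Their median change of 0.13 was 0.22 without 72 h replicate 2, 0.29 with the class block and -0.04 to 0.26 with libraries left out. Avil, an actin-severing protein of tuft cells, had 5.25, 19.8 and 19.8 CPM at 24 h and 110, 36.2 and 42.0 CPM at 72 h, wholly higher, though 5 of the 8 tuft cell genes tested were below 0. Dclk1, another tuft cell gene, was low in the 4 libraries with neither sex-linked transcript (at most 3.27 CPM). Slc10a2, the ileal bile acid transporter, was wholly higher as well, at 7.62 to 13.7 CPM and 16.4 to 30.3 CPM. Neither passed in the 9-library fit, and both were chosen after their values were seen.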
